A study of Mus musculus with 6 samples.

Results

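The 10 naive pluripotency transcription factors Nanog, Esrrb, Tfcp2l1, Klf2, Klf4, Klf5, Tbx3, Zfp42, Prdm14 and Nr5a2 were examined in iPSCs (induced pluripotent stem cells) of the mouse, made by reprogramming other cells to resemble embryonic stem cells. They are 10 of the 24421 gene entries of the deposited count table, found by their symbols, and all 10 passed the filter on low counts. Bulk RNA sequencing had been done on 3 libraries of cells in which both copies of the gene of serum response factor (SRF) carry the deleted allele (SRFΔ/Δ, called SRF KO) and on 3 libraries of cells that keep the undeleted conditional allele (SRFf/f, called WT). Both were grown with serum. Whether replicates stem from different clones or cultures is not in the labels, so the p-values measure only the spread between these libraries, which may be technical.

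The naive state of mouse pluripotent cells is held by a network of transcription factors that activate one another and Pou5f1 and Sox2. Its members take different inputs: TFCP2L1 and KLF4 are induced through LIF and STAT3, ESRRB is released when the repressor TCF7L1 is held off by beta-catenin, and TBX3 acts upstream of Nanog. When the cells leave this state, most of these factors decline before Pou5f1 does, and formative genes such as Otx2 and Fgf5 come on. SRF is a transcription factor of actin cytoskeletal and immediate-early genes, which binds the CArG box.

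The libraries held between 26321602 and 36680156 counts. Srf, the targeted gene, had 113, 84 and 131 counts under SRF KO, against 1326, 765 and 1066 under WT, so it went the way of the labels in each library. In a principal component analysis the first component separated the groups, and on the second WT replicate 2 lay at -15.0, against 5.58 and 10.3 for the other WT libraries. SRF KO replicate 2 lay to the same side, at -5.93, against 2.5 and 2.54 for the other SRF KO libraries. Calls and list counts that turn on WT replicate 2 are given without it too.

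Of the 10 factors, 6 fell in SRF KO, 2 rose and 2 missed the threshold of 0.05 on the adjusted p (quasi-likelihood test of edgeR, Benjamini-Hochberg method over all entries tested). Differences are given as log2FC, the log2 fold change of SRF KO over WT. Nanog, Tfcp2l1, Prdm14, Klf4, Esrrb and Klf2 were the 6 that fell, to between 57.8% and 78.8% of their WT levels. Klf5 and Zfp42 (also known as Rex1) rose, to 126% and 113% of WT. Tbx3 and Nr5a2 were not called. Of all 14778 genes tested, 21.3% fell and 21.2% rose by the same rule, 42.4% together. The median log2FC of the 10 factors was -0.42, and that of all genes tested was -0.01. The 3 SRF KO libraries did not overlap the 3 WT libraries for any of the 10, with 6 factors lower and 4 higher. The same was true of 52.7% of all genes tested, 26.5% lower and 26.2% higher.

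**Figure D1:**
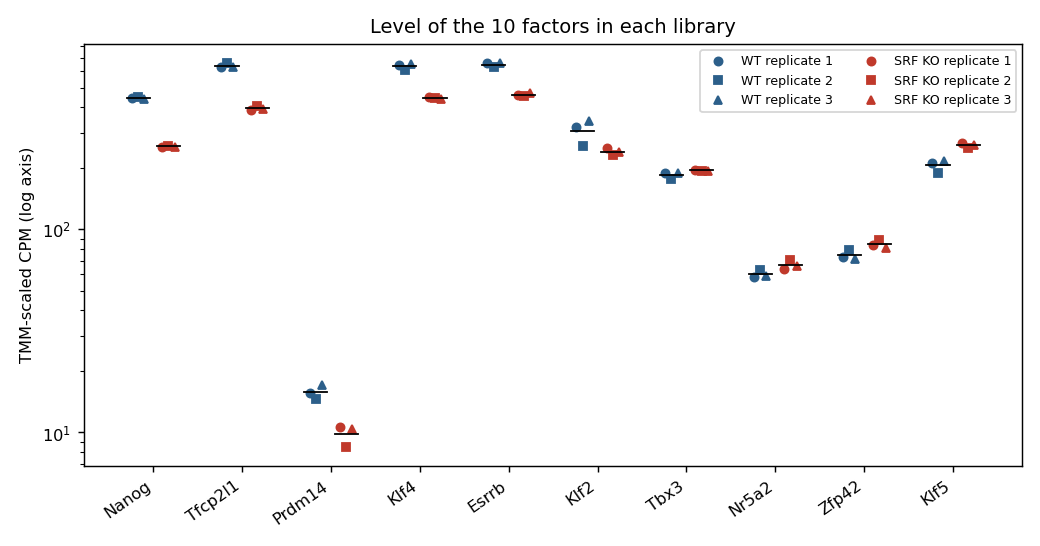
TMM-scaled CPM (log axis) of each factor in the 3 WT (blue) and 3 SRF KO (red) libraries, with a black bar at each group's mean and factors ordered by fold change. From Nanog to Klf2 the red points lie below the blue ones, and from Tbx3 to Klf5 they lie above them, by small amounts for Tbx3, Nr5a2 and Zfp42.

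Sequence upstream of the genes is shown for Nanog, whose fold change was the lowest of the 10, and for Zfp42, which went the other way. Each is the 250 bases before a RefSeq transcription start in assembly GRCm38.p6, written 5′ to 3′ on the gene's strand, with motif matches in capitals. In Nanog the capitals mark a joined site for SOX2 and POU5F1, and in Zfp42 an octamer, the site of POU factors, followed by a KLF site.
Nanog (chr6:122707239-122707488, plus strand): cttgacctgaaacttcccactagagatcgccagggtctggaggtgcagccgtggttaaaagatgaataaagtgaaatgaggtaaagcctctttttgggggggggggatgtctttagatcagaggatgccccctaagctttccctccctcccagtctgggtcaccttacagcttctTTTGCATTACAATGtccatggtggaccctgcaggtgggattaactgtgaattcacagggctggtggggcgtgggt
Zfp42 (chr8:43307010-43307259, minus strand): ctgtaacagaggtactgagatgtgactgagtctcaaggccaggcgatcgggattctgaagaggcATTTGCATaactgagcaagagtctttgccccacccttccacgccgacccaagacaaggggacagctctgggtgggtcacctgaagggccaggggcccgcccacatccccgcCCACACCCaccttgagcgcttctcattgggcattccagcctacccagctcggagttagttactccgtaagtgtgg

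Motifs were searched on both strands in windows from 250 bases before to 50 bases after each start. The RefSeq table held windows for 7 of the 10 factors, 10 windows in all, and none was matched for Klf5, Tbx3 and Prdm14. The joined site, searched as CATTGT, any base, then ATGCNAA, and typed with the known Nanog element in mind, was found in 2 of 32851 windows (0.00609%). Both are windows of Nanog and overlap, so that they hold the same copy, from -75 to -62 relative to the first start. The octamer ATGCAAAT was in 1.74% of all windows and the KLF site GGGTGTGG in 3.56%. Among the factors each of these was in Zfp42 only, at -186 to -179 and at -75 to -68. The CArG box was in 1.63% of all windows and in none of the 10 of the factors. In the window of Srf itself it occurred as CCATATAAGG and as CCATAAAAGG. The ESRRB and NR5A2 site CAAGGTCA (1.56% of all windows), the STAT site TTCCNGGAA (1.15%) and the EGR site GCGTGGGCG (0.612%) were likewise not among the letters of the 10 windows. The joined site and the octamer share letters, and the copy in Nanog does not hold the whole octamer.

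Nanog encodes a homeodomain protein that holds back differentiation. Its gene lies at chr6:122707489-122714633 on the plus strand in GRCm38, with 5 exon blocks. Its level was 256, 259 and 255 CPM in SRF KO replicates 1 to 3 and 444, 447 and 441 CPM in WT replicates 1 to 3 (CPM are counts scaled to a common library total, with TMM factors). Both groups were tight, and the gap between them was far wider than the range of either. The log2FC was -0.79 (SE 0.04, edgeR adjusted p 1.14e-07), and 3.31% of all genes tested had a lower one.

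Tfcp2l1 encodes a grainyhead-like factor that acts downstream of LIF and STAT3. It lies at chr1:118627945-118685168 on the plus strand. Its level was 387, 406 and 390 CPM in SRF KO and 633, 659 and 634 CPM in WT. Replicate 2 was the highest library of both groups, and the groups stayed apart. This was a log2FC of -0.70 (SE 0.05, edgeR adjusted p 5.15e-07).

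Esrrb encodes an orphan nuclear receptor that shares many targets with NANOG. It lies at chr12:86361117-86521628 on the plus strand. Its level was 460, 456 and 468 CPM in SRF KO and 658, 629 and 657 CPM in WT. WT replicate 2 was the lowest WT library but lay above every SRF KO library. For Esrrb the log2FC was -0.49 (SE 0.05, edgeR adjusted p 7.42e-06).

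The 3 Krüppel-like factors KLF2, KLF4 and KLF5 bind similar GC-rich sites and can stand in for one another in self-renewal, and they did not go the same way. Klf4 (chr4:55527143-55532466, minus strand) was at 449, 443 and 441 CPM in SRF KO and 649, 612 and 651 CPM in WT. Its libraries were apart by group, with a log2FC of -0.52 (SE 0.05, edgeR adjusted p 5.79e-06). Klf2 (chr8:72319033-72321656, plus strand) was at 252, 234 and 239 CPM in SRF KO and 319, 258 and 342 CPM in WT. Its WT replicate 2 came close to the highest SRF KO library, and its WT libraries varied more than those of any other of the 10 factors, by 14.2% of their mean (SD). The log2FC of Klf2 was -0.34 (SE 0.09, edgeR adjusted p 0.00739), and -0.45 without WT replicate 2.

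Klf5 (chr14:99298691-99315036, plus strand), which is also a factor of the trophectoderm, was at 267, 251 and 261 CPM in SRF KO and 212, 191 and 217 CPM in WT. Every SRF KO library was above every WT library, and the log2FC was 0.33 (SE 0.06, edgeR adjusted p 0.000785). Within each library, Klf4 had 1.68, 1.77 and 1.69 counts per Klf5 count in SRF KO and 3.06, 3.21 and 3.002 in WT. This ratio, which no scaling of the libraries can change, was 1.80 times higher in WT. Its exact two-sided permutation p was 0.1, the smallest that 3 libraries against 3 allow, so that this test could not pass 0.05. It is 1 of 15 such ratios computed, of which 14 had a p of 0.1 and 1 a p of 0.2, and adjustment cannot lower these.

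Prdm14 encodes a PR-domain protein that represses DNA methyltransferase genes and FGF signalling in naive cells. It lies at chr1:13113457-13127163 on the minus strand and was the least abundant of the 10. It had 285, 225 and 300 counts in SRF KO and 567, 377 and 493 in WT, or 10.6, 8.50 and 10.4 CPM against 15.7, 14.7 and 17.2 CPM. The groups did not overlap, and the log2FC was -0.69 (SE 0.10, edgeR adjusted p 0.000211), with the widest 95% interval of the 10, from -0.91 to -0.47. Cbfa2t2, which encodes a corepressor partner of PRDM14 and was chosen after its values were seen, fell from 179 ± 4.17 to 151 ± 0.353 CPM (SD, n = 3; log2FC -0.25, edgeR adjusted p 0.00107).

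Zfp42 encodes the zinc finger protein REX1, a usual marker of the naive state. It lies at chr8:43295063-43306980 on the minus strand. Its level was 84.1, 88.8 and 80.6 CPM in SRF KO and 73.5, 79.6 and 71.5 CPM in WT. The lowest SRF KO library was only just above WT replicate 2. Its log2FC was 0.17 (SE 0.06, edgeR adjusted p 0.0312), and this call was lost when any of 4 libraries was left out. For SRF KO, the edgeR adjusted p was 0.0903 when replicate 1 was dropped (log2FC 0.18) and 0.122 when replicate 2 was (0.14). For WT it was 0.111 when replicate 1 was dropped (0.16) and 0.1 when replicate 3 was (0.14).

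Nr5a2 encodes the nuclear receptor LRH-1, which binds regulatory sequence of Pou5f1. It lies at chr1:136842571-136960448 on the minus strand. Its level was 63.7, 70.8 and 65.9 CPM in SRF KO and 58.3, 63.3 and 58.8 CPM in WT, with SRF KO replicate 1 and WT replicate 2 almost equal. With a log2FC of 0.15 (95% interval 0.03 to 0.28, not adjusted for the number of genes) it missed the threshold (edgeR adjusted p 0.0539). Without WT replicate 2 it passed, at 0.20 (edgeR adjusted p 0.00367).

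Tbx3 encodes a T-box factor that supports self-renewal and is also used in extra-embryonic endoderm. It lies at chr5:119670669-119684724 on the plus strand. Its level was 196, 194 and 195 CPM in SRF KO and 189, 178 and 190 CPM in WT. All 3 SRF KO libraries were above all WT libraries, by a few CPM. The log2FC of Tbx3 was 0.07, with a 95% interval of -0.03 to 0.17 (edgeR adjusted p 0.270).

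**Figure D2:**
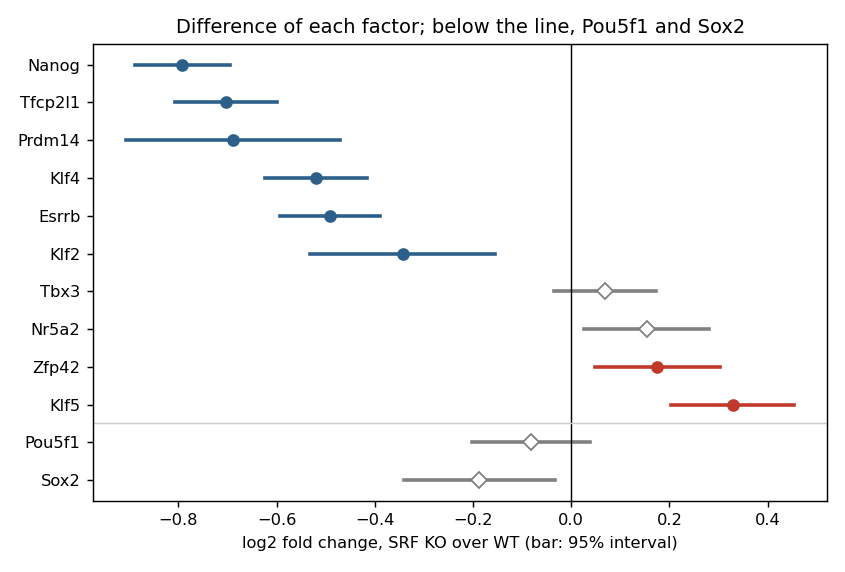
Log2 fold change of SRF KO over WT for the 10 factors and, below the grey line, Pou5f1 and Sox2, with bars for the 95% interval of each gene alone. Filled circles passed the threshold (blue lower, red higher in SRF KO) and open diamonds did not, and the intervals of the 6 factors that fell end at -0.16 or below.

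Levels were compared between the factors per kb of exon (CPM divided by the length of the joined exons in GENCODE M21). In WT the order was Klf4 (209 CPM per kb), Nanog (198), Klf2 (166), Esrrb (107), Tfcp2l1 (68.0), Zfp42 (39.8), Klf5 (39.7), Tbx3 (28.1), Nr5a2 (10.2) and Prdm14 (6.18). Of these neighbours only Zfp42 and Klf5 overlapped between WT libraries. In SRF KO, Klf2 (131 CPM per kb) stood above Nanog (114) in every library. Klf5 (49.9) and Zfp42 (44.9) stood above Tfcp2l1 (41.8), although the Zfp42 and Tfcp2l1 values overlapped. Which transcripts the cells use is not known from the table, so that the lengths are approximate. Overlap of the 10 factors with other genes was small: 1.74% of the exon bases of Tbx3 are shared with the antisense gene Tbx3os1 and 1.38% of those of Tfcp2l1 with a small nuclear RNA gene, and none of the other 8 shared exon bases with another GENCODE gene. Pou5f1, the reference gene used below, shares 14.1% of its exon bases with the antisense gene Gm19553, which has no entry in the count table.

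The factors were also set against Pou5f1, which marks naive and formative cells alike. In bulk RNA, fewer cells of a type and less RNA per cell cannot be told apart. Pou5f1 was at 761, 774 and 784 CPM in SRF KO and 859, 759 and 837 CPM in WT, and Sox2 at 404, 440 and 391 CPM and 491, 419 and 495 CPM. The groups overlapped for both. Their log2FC were -0.08 (95% interval -0.20 to 0.04, edgeR adjusted p 0.258) and -0.19 (-0.34 to -0.03, edgeR adjusted p 0.0506). Without WT replicate 2 both passed the threshold, at -0.13 and -0.26.

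Per 100 Pou5f1 counts, Nanog had 33.6, 33.4 and 32.5 counts in SRF KO and 51.7, 58.9 and 52.7 in WT. The same 6 factors that fell were lower in every library of SRF KO than of WT on this measure, with ratios of the group means between 0.610 for Nanog and 0.837 for Klf2. Klf5, Tbx3 and Nr5a2 were higher in all, at 1.33, 1.11 and 1.17 times WT, and Zfp42 overlapped. The share of all genes without overlap on this measure was not computed, so these counts have no background beside them. With the libraries scaled to the summed counts of Pou5f1 and Sox2, the median of all genes moved from -0.01 to 0.11, a shift that all values below share. On this scale Nanog was at -0.68, Tfcp2l1 at -0.59, Prdm14 at -0.57, Klf4 at -0.40 and Esrrb at -0.37, and these 5 remained past the threshold. Klf2, at -0.22 (edgeR adjusted p 0.0647), did not. Klf5 (0.45), Zfp42 (0.29) and Nr5a2 (0.26) were called higher. Of all genes tested, 9.47% were called lower and 27% higher on this scale.

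Other lists place the factors in their pathway. Of 10 core and general pluripotency genes, 1 rose and 1 fell, with a median log2FC of 0.01. Dppa2 rose by 0.39, and Tdgf1, a Nodal coreceptor, fell by 0.20 on the log2 scale. The call of Tdgf1 was lost without SRF KO replicate 1 (-0.18) and on the Pou5f1 and Sox2 scale (-0.08). The median of this list was below 0 when SRF KO replicate 1 (-0.0036) or 2 (-0.0132) or WT replicate 2 (-0.0817) or 3 (-0.0416) was dropped. It was 0.03 with WT replicate 1 left out, 0.02 with SRF KO replicate 3 left out and 0.04 with library totals only. On the Pou5f1 and Sox2 scale it was 0.12, beside 0.105 for all genes tested. Pou5f1 and Sox2 are in this list and set that scale, so that their own values there are partly fixed in advance. Without WT replicate 2, 4 of the 10 fell. The number that fell was 2 when SRF KO replicate 2 was dropped and 0 when SRF KO replicate 1 was.

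Of 14 other genes tied to the naive state, 6 fell and 2 rose, with a median of -0.13. This median was -0.24 without WT replicate 2, where 7 fell and 3 rose, and -0.08 without WT replicate 3. On the Pou5f1 and Sox2 scale it was -0.01, beside 0.105 for all genes tested, and 6 fell there too. Dppa3, a maternal and germ cell factor, went from 32.0 ± 2.26 to 7.56 ± 0.377 CPM (SD, n = 3; log2FC -2.08, edgeR adjusted p 6.19e-09). The surface protein gene Pecam1 and the AKT coactivator gene Tcl1 had log2FC of -0.92 and -0.64. Gbx2, a homeobox gene that supports self-renewal downstream of STAT3, rose by 0.91.

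Of 11 genes of the LIF and STAT3 pathway, 5 rose and 3 fell. Their median log2FC was 0.05, but 0.14 when WT replicate 3 was dropped, 0.12 for WT replicate 1, 0.07 for SRF KO replicate 2 and 0.03 for SRF KO replicate 1. It was 0.18 on the Pou5f1 and Sox2 scale, beside 0.105 for all genes tested, and 0.08 with library totals only. The receptor gene Lifr and the phosphatase gene Ptpn11 rose by 0.24 and 0.19, while the STAT3 targets Pim1 and Socs3 fell by 0.73 and 0.26. Ptpn11 lost its call without SRF KO replicate 1 (0.17), and 3 genes rose without that library. Without SRF KO replicate 3, 2 genes fell, and without WT replicate 2, 4 fell. Socs3 lost its call on the Pou5f1 and Sox2 scale (-0.14). The 9 BMP and Id genes had 4 rises and 1 fall, with Id1 up by 1.64 (from 10.4 ± 1.06 to 32.4 ± 1.46 CPM), the ligand gene Bmp4 up by 0.90, the receptor gene Bmpr2 up by 0.38 and Id2 down, at -1.07 (12.1 ± 0.632 CPM in SRF KO, 25.6 ± 1.07 in WT; SD, n = 3). Without WT replicate 2, 6 of these 9 genes rose, and without WT replicate 3, 5 did. The number that rose was 3 when SRF KO replicate 2 or 3 or WT replicate 1 was dropped, and at an adjusted p under 0.01. Id proteins block differentiation factors of the basic helix-loop-helix type.

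In the GSK3 and TCF7L1 arm, 1 of 7 genes rose and 2 fell. Tcf7l1, the repressor of Esrrb and other naive genes, fell from 84.6 ± 5.69 to 60.5 ± 2.60 CPM (SD, n = 3; log2FC -0.48, edgeR adjusted p 7e-05). It and Esrrb thus both fell. Apc had a log2FC of -0.31, not called on the Pou5f1 and Sox2 scale (-0.20). Axin2, a target of beta-catenin, had 0.26, not called without SRF KO replicate 1 (0.24) or 3 (0.22). Without WT replicate 2, 4 of these 7 genes fell. Of 11 regulators of the exit from the naive state, 2 rose and 2 fell. Etv5 and Rbpj, whose products promote exit, had log2FC of -0.53 and -0.35, and Jarid2, a partner of the Polycomb complex, had 0.20. Zfp706 had 0.17, a call lost without SRF KO replicate 2 (0.15) or 3 (0.18) or WT replicate 1 (0.17) or 3 (0.15). In this list 1 gene rose when SRF KO replicate 2 or 3 or WT replicate 1 was dropped, and 4 fell without WT replicate 2.

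Of 12 formative and primed epiblast genes, 7 rose and 2 fell, with a median of 0.44. Without WT replicate 2, 7 rose and 3 fell, with a median of 0.35. The number that rose was 6 without SRF KO replicate 1, 2 or 3 and at an adjusted p under 0.01, and 8 without WT replicate 3. Dnmt3a, a DNA methyltransferase gene, rose from 243 ± 0.942 to 447 ± 1.46 CPM (SD, n = 3; log2FC 0.88, edgeR adjusted p 4.63e-08), and Cdh2 (N-cadherin) rose by 0.93. Lef1 and Zic2 had log2FC of -0.82 and -0.96. Otx2, the factor that starts the formative state, and Fgf5, chosen after their values were seen, rose by 0.51 and 1.35 but remained at low levels, at 17.6 ± 1.44 and 5.02 ± 0.505 CPM in SRF KO (SD, n = 3). Dnmt3b, likewise chosen, was at 0.04 (edgeR adjusted p 0.532). For each 100 Nanog counts there were 6.44, 7.45 and 6.75 Otx2 counts in SRF KO and 2.86, 2.72 and 2.81 in WT.

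**Figure D3:**
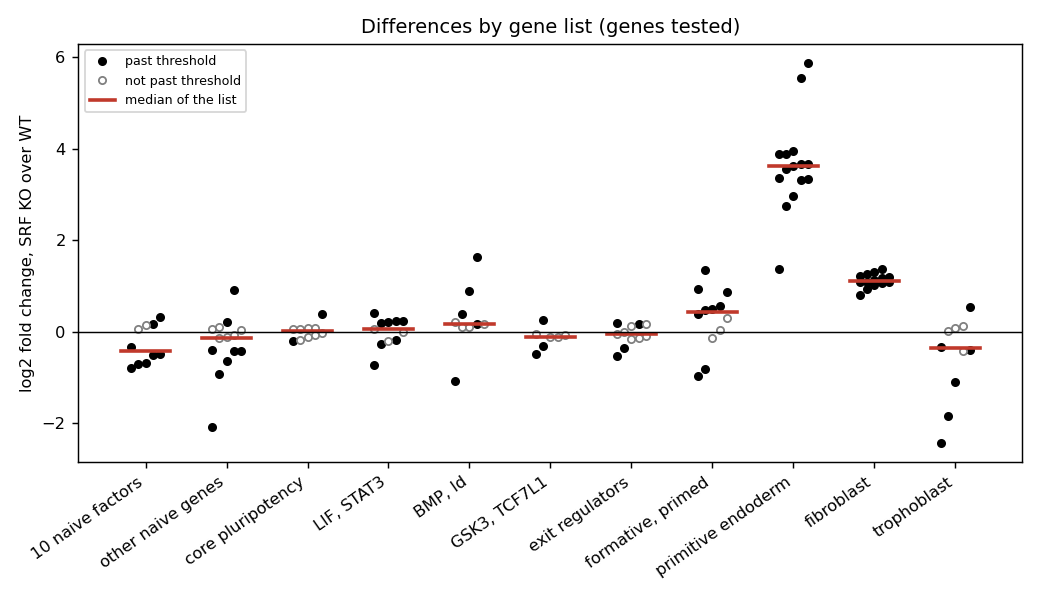
Log2 fold change of SRF KO over WT for every tested gene of 11 lists, filled where the gene passed the threshold, with the median of each list as a red bar. The 10 naive factors lie between -0.79 and 0.33, while the primitive endoderm markers lie between 1.38 and 5.88.

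Markers of other cell types moved with the groups. All 15 primitive endoderm markers rose, with a median log2FC of 3.62. Their summed level was 3658 to 3911 CPM in SRF KO and 460 to 489 CPM in WT. None was at 0 counts in any library. Gata6, the factor that opposes Nanog in the choice between epiblast and primitive endoderm, was chosen after its values were seen: it rose from 4.25 ± 0.338 CPM to 53.9 ± 3.34 CPM (SD, n = 3), or from 0.958 to 21.0 counts per 100 Nanog counts. Cubn, Lrp2, Dab2 and Col4a1 rose by 5.88, 3.89, 3.68 and 3.36. All 14 fibroblast markers rose too, with a median of 1.11 and summed levels of 1517 to 1844 CPM and 735 to 855 CPM, none at 0. Prrx1, Fbn1, Col5a2 and Col3a1 rose by 1.13, 1.38, 1.22 and 1.09. Of 10 trophoblast markers tested out of 11, 1 rose and 5 fell, with summed levels of 108 to 113 CPM in SRF KO and 141 to 152 CPM in WT. The number that fell was 4 without SRF KO replicate 1, 2 or 3 or WT replicate 1. It was also 4 with DESeq2, with library totals only and at an adjusted p under 0.01. Tfap2c, Krt7 and Rhox9 had log2FC of -1.10, -2.43 and -1.85, and Plet1 had 0.54. Tfap2c, the most abundant of this list in WT, went from 71.0 to 33.1 CPM, so that the summed level follows it closely. Elf5 was at 0 in SRF KO replicates 1 and 2, but had only 4, 5 and 2 counts in WT. The summed level of the 10 naive factors was 2405 to 2427 CPM in SRF KO and 3132 to 3280 CPM in WT, and that of the core genes 4512 to 4685 CPM and 4710 to 4900 CPM. The part of endoderm-like or fibroblast-like cells in the levels of the naive factors, of the formative and primed epiblast genes and of the other lists was not tested.

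**Figure D4:**
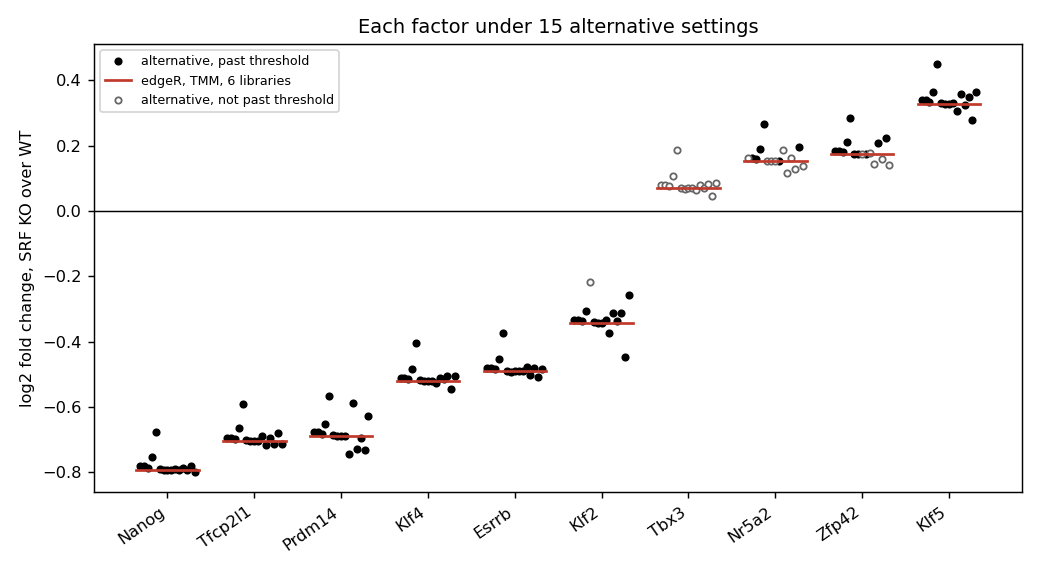
Log2 fold change of each factor under edgeR with TMM scaling and all 6 libraries (red bar) and under 15 alternatives (points, filled where past the threshold). No factor changes sign, and the open points among the called factors belong to Klf2 on the Pou5f1 and Sox2 scale and to Zfp42.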

How the data were processed

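The authors deposited whole-number read counts per gene and transposable element subfamily, without normalization, judged from the values. Per the labels' protocols, total RNA was read as 150 bp pairs on an Illumina HiSeq 2500 and reads that were empty, of low quality or adaptor were discarded. The submitters' processing notes name build mm10 and DESeq2. The aligner, counter, annotation and strand setting are not given in the sources used here.

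The 24421 genes and 1146 transposable element entries were fitted together in R 4.3.3 with edgeR 4.0.16: filterByExpr (minimum count 10), TMM scaling and the quasi-likelihood test of SRF KO over WT, without a replicate term. The SE is the absolute log2 fold change over the square root of F. In simulated data for this comparison (15611 entries, 200 changed by a fold of 2), edgeR recovered 91% with 5.21% false calls and DESeq2 1.42.0 recovered 83.5% with 5.11%. In the real data 42.4% of genes tested were called, and the largest difference of a factor was 1.73-fold (Nanog). The simulated rates therefore do not carry over to the calls reported here. No replicate pair agreed within sampling noise (chi-square per degree of freedom 1.66 to 12.4). Positions and lengths come from GENCODE M21 (GRCm38), matched by symbol, and sequences from RefSeq (GRCm38.p6). Levels rest on 225 to 23839 counts per factor and library. Intervals cover the spread between these libraries.

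The factors, lists and motifs were chosen with earlier results of these data known. All 10 factors are named, with Srf, Pou5f1, Sox2 and up to 4 called genes per list with the smallest p. Others are said to be chosen after their values were seen. Alternatives were DESeq2, other scalings, no filter, genes alone, an adjusted p under 0.01, a replicate block and leaving out each library. For genes other than the 10, and for lists, these were added after seeing the data.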

Additional observations from a re-analysis of the deposited data

How the results depend on the processing

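The number of factors called lower was 6 in all alternatives run except on the Pou5f1 and Sox2 scale, where it was 5. The number called higher was 2 in the reported fit, 1 at an adjusted p under 0.01, and between 1 and 3 with 1 library left out: 1 without SRF KO replicate 1 or 2 or WT replicate 1 or 3, and 3 without WT replicate 2. It was 3 with RLE or upper quartile scaling, with library totals only and on the Pou5f1 and Sox2 scale, since Nr5a2 then passed. Of all genes tested, 9.47% were called lower on the Pou5f1 and Sox2 scale. In the other alternatives this share was between 13.6% (adjusted p under 0.01) and 26.1% (replicate block). The share called higher was between 14.9% (adjusted p under 0.01) and 27% (Pou5f1 and Sox2 scale). The median log2 fold change of the 10 moved to -0.30 on the Pou5f1 and Sox2 scale. On that scale the median of all genes tested moved from -0.0127 to 0.105, a shift that the 10 share. With 1 library left out, the median of the 10 was between -0.48 (WT replicate 2) and -0.37 (WT replicate 3). The cause of these differences between left-out libraries was not tested. Over 150 comparisons of single factors with an alternative, 138 kept their direction and call, 6 lost a call (5 of Zfp42, 1 of Klf2), 6 gained one (all Nr5a2) and none changed sign. On the Pou5f1 and Sox2 scale, calls of other lists moved too: the exit regulators had 4 rises, the BMP and Id genes 6 rises, the LIF and STAT3 genes 1 fall, the GSK3 and TCF7L1 arm 1 fall, the trophoblast markers 3 falls and the core genes 0 falls. Pou5f1 and Sox2, which set this scale, are themselves among the core genes.

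Replicate numbers were not treated as pairs: between libraries of 1 number, deviations from the group means correlated at 0.0574, 0.383 and 0.236 over 12920 entries, and replicate 1 of SRF KO was closer to WT replicate 3 (0.276). Among all pairings of an SRF KO with a WT library, number 2 with number 2 was the highest (0.383). SRF KO replicate 2 with WT replicate 3 was the lowest (-0.427). With a replicate block, 3 factors were called higher and 6 lower, with a median of -0.41, and Nr5a2 (0.15) and Sox2 (-0.19) passed the threshold. Of all genes tested, 24.8% were called higher and 26.1% lower with the block. List counts moved as well: the exit regulators had 4 rises and 5 falls, the GSK3 and TCF7L1 arm 4 falls, the core genes 3 falls and the BMP and Id genes 6 rises.

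Depth limits Prdm14 most among the 10, with 225 to 567 counts a library. How reads were assigned to genes is unknown.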

Other observations

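Close relatives of the 10 factors were counted as well, in a list that also holds Cbfa2t2. That gene encodes the partner of PRDM14 named above, is not a relative, and is among those counted as falling. Of 50 listed, 49 were in the table and 38 were tested, of which 5 rose and 10 fell, with a median log2FC of -0.05. This median was -0.07 without WT replicate 1, and -0.01 with library totals only or with no filter on low counts. On the Pou5f1 and Sox2 scale it was 0.07, beside 0.105 for all genes tested, and 6 fell and 7 rose. Without WT replicate 2, 39 were tested, of which 4 rose and 12 fell. Prdm6, of the PR-domain family of Prdm14, had 2.12, 1.55 and 2.39 CPM in SRF KO and 0.0552, 0.0389 and 0.105 CPM in WT, so that WT was at or under 3 counts in each library. Prdm1, which encodes a transcriptional repressor needed to specify germ cells, went from 12.2 ± 0.594 to 6.45 ± 0.80 CPM (SD, n = 3; log2FC -0.92, edgeR adjusted p 2.72e-05). Grhl1, of the family of Tfcp2l1, had a log2FC of -0.84, and Tbx15, a T-box gene of mesenchyme, had 1.40.

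Some values stand out beside each other. Id1 rose and Id2 fell, although both are targets of BMP signalling. The STAT3 targets Pim1 and Socs3 fell and Gbx2 rose. Tcf7l1 and its target Esrrb fell in the same libraries. No explanation of these patterns was tested.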
